A study of Homo sapiens with 12 samples.

Results

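Mitosis and kinetochore genes were followed through 12 poly(A) RNA-seq libraries of ARPE-19, a human cell line derived from the retinal pigment epithelium (RPE). The members are 54 genes given as a list of names, each matched to 1 of 40591 named lines of the deposited count table. Of the 54, 52 passed the filter on low counts and were tested, while OIP5 and NUSAP1 did not pass it. The libraries form 4 groups of 3: WT, for which the labels name no open reading frame (ORF), GFP, GSTA4 (glutathione S-transferase alpha 4) and OSK, read as the reprogramming factors POU5F1 (OCT4), SOX2 and KLF4. Per the series' design text, stable cells had expressed their ORF for 4 days. The promoter and vector are not named in the labels, nor is it said whether a group stands for 1 stable line or several, whether its libraries are separate cultures, or how WT cells were handled. The effect of an ORF and other differences between lines cannot be told apart, and p-values measure only the spread between these libraries, which may be technical.

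Dividing cells make most mitotic proteins anew in each cycle. Their genes are held down by the DREAM complex and switched on for G2 and M phase by the B-MYB-MuvB and FOXM1 factors. These factors act largely through the cell cycle genes homology region (CHR) of promoters, often beside CCAAT boxes bound by NF-Y. The products enter mitosis through cyclin and CDK1, build the spindle, attach chromosomes at the kinetochore, wait at the spindle checkpoint and then divide the cell. Mature RPE in the eye is a resting tissue that rarely divides, whereas ARPE-19 cells proliferate in culture.

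Promoter windows were searched for the motifs named above. The members are mitotic genes, a class described above as switched on largely through the CHR. A CHR excess can thus come from the choice of the list, and its part in the levels seen here was not tested. RefSeq windows on GRCh38.p14, from 250 bases before to 50 bases after the start, were at hand for 46 members. A CHR was taken as TTTGAA, or with a C for the last T as TTCGAA, and the NF-Y box as CCAAT, each searched on both strands. A box on the opposite strand shows as ATTGG in the lines printed here. The 150 bases before the start are printed 5′ to 3′ on the gene's strand for 5 members, with motif matches in capitals. CCNB2 and PLK1 hold a CHR match near the start with a box farther out, and MKI67 holds 2 CHR matches of which one overlaps a CCAAT match. CENPA has its CHR nearer the start than these. In the window searched for CDC25C neither motif was found, and other parts of that gene were not searched.
CCNB2, chr15:59104996-59105145, plus strand: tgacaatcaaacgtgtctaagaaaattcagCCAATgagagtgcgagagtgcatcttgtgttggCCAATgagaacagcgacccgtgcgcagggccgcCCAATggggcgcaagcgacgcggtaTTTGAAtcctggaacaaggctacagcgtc
PLK1, chr16:23678739-23678888, plus strand: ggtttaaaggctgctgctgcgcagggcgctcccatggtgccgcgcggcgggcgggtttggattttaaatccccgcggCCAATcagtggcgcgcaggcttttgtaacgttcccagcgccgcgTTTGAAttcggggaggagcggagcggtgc
MKI67, chr10:128126424-128126573, minus strand: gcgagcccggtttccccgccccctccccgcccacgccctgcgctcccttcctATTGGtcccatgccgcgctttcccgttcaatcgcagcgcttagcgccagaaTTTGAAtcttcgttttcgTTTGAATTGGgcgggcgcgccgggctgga
CENPA, chr2:26785906-26786055, plus strand: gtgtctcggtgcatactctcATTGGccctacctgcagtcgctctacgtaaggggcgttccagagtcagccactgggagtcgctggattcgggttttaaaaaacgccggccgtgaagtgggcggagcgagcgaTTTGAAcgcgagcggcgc
CDC25C, chr5:138338356-138338505, minus strand: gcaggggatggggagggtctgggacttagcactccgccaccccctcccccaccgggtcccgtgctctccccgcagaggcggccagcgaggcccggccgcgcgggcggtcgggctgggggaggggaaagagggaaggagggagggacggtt

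A CHR match lay in the windows of 35 of the 46 members (76.1%), against 16.6% of all 27305 windows and 11.1% of the 11275 windows of tested genes. With TTTGAA alone the count was 32, or 69.6%. From 50 bases before the start onward, 30 members (65.2%) held a CHR, against 5.1% of all windows. CCAAT was found in 34 members (73.9%) and in 35.7% of all windows, and both motifs in 26 members (56.5%) and 6.6% of all windows. The median match began 22 bases before the start for CHR and 74 bases before it for CCAAT. Windows without a CHR included those of CCNA2, CCNB1, CDC25C, AURKB and CENPE, and a missing match says only that these letters are not in this window. A match is a description of the sequence and was not tested as a binding site.

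**Figure D1:**
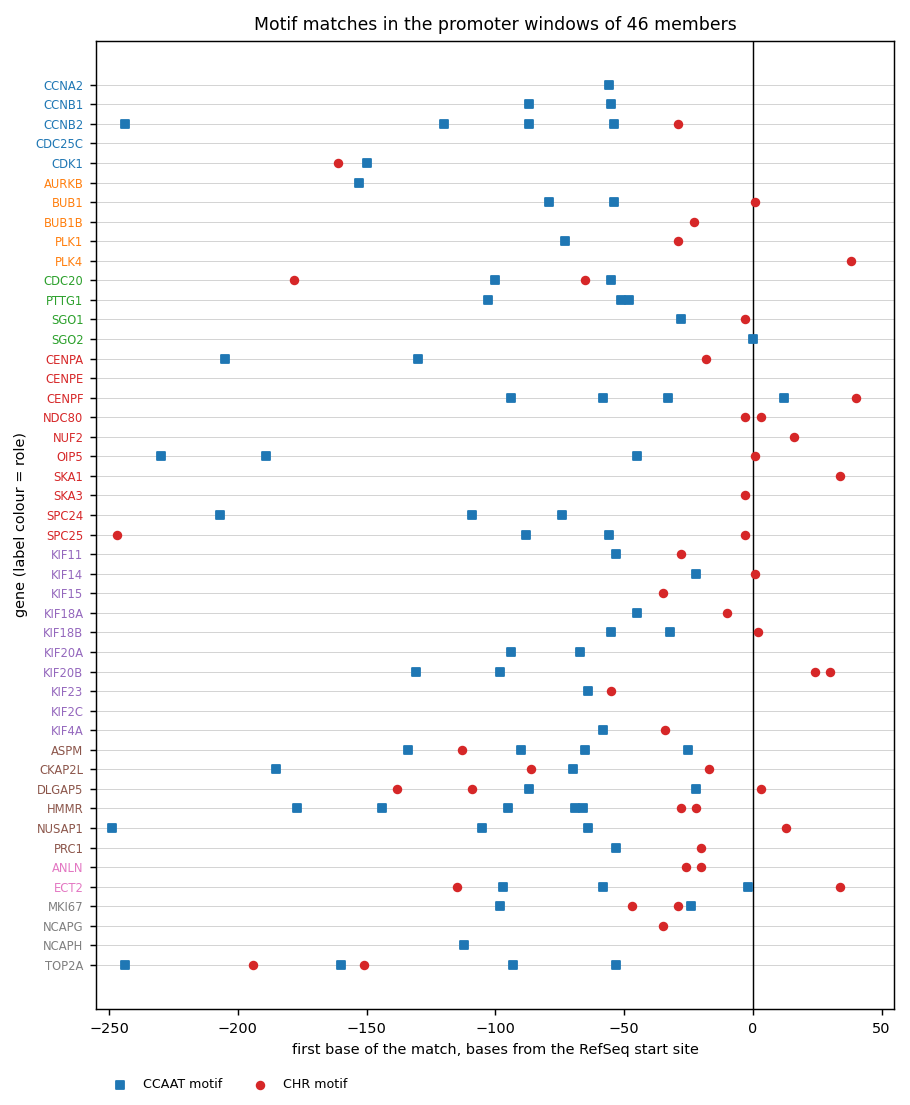
Position of each CHR match (red circles) and CCAAT match (blue squares) in the promoter windows of 46 members; the x axis is the distance of the first base of the match from the RefSeq start site in bases, and each row is a gene. CHR matches gather near the start, with a median of 22 bases before it, and CCAAT matches farther out, with a median of 74 bases before it.

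Total counts ran from 12630675 to 17045454 reads, and 3 reads, the upper limit of a count of 0 at 95% confidence, equal 0.177 to 0.239 CPM (reads scaled to a fixed library total). Those limits cover counting error only. The ORF genes followed the labels, with GSTA4 at 8.89 CPM in GFP and 418.9 in its own group, and POU5F1, SOX2 and KLF4 at 751.4, 605.8 and 894.7 CPM in OSK. Of 15 RPE markers, 12 reached 1 CPM in the mean of some group, while RPE65, DCT and TTR did not. Pigment genes were present, and TYRP1 stood at 119, 202.5, 46.8 and 137.4 CPM in WT, GFP, GSTA4 and OSK, PMEL at 247, 361.2, 102.2 and 107 and TYR at 21.4, 66.7, 12.02 and 32.5, each highest in GFP. The retinoid gene LRAT went another way, at 1.06, 3.92, 14.4 and 1.35 CPM. The summed level of the 15 markers was 2423 to 2739 CPM in the WT libraries, 2299 to 2486 in GFP, 1597 to 1655 in GSTA4 and 1339 to 1411 in OSK. The keratins KRT8 and KRT18 weighed most in that sum, at 1263 and 437.6 CPM in WT, 852.9 and 317.5 in GFP, 683.8 and 294.6 in GSTA4 and 483.7 and 219.9 in OSK. The sum therefore hides markers that stood higher in GFP than in WT. The part of these shifts in the results on mitosis was not tested. Summed blood cell markers stayed between 0 and 1.84 CPM, and of 8 pluripotent cell markers DNMT3B alone reached 1 CPM. Of 8 fibroblast markers, PDGFRB and COL1A1 were above 1 CPM with LUM at 0 reads, and of 4 endothelial markers, KDR and VWF were. The summed fibroblast markers ran from 766.6 to 810.1 CPM in WT, 744.0 to 764.8 in GFP, 536.7 to 559.6 in GSTA4 and 324.8 to 383.4 in OSK, and their part was not tested either. Reads fell on 27349 named genes in GFP replicate 1, where the other libraries had 19488 to 22073, and results without it are given beside the comparisons it touches.

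The members' levels stood in 1 order across the groups for nearly the whole set. Their summed level, in CPM after TMM scaling as are all member levels here, was 206.4 ± 11.4 in WT, 490.0 ± 12.3 in GSTA4, 643.6 ± 30.3 in GFP and 1469 ± 141 in OSK (SD, n = 3 libraries). The groups did not overlap in this sum. By library it was 196.3, 204.1 and 218.7 in WT, 640.5, 615.0 and 675.4 in GFP, 477.6, 490.1 and 502.2 in GSTA4 and 1311, 1512 and 1583 in OSK. In bulk RNA, fewer cells in mitosis and less RNA of these genes per cell cannot be told apart. For 48 of the 54 members the group means stood in the order WT, GSTA4, GFP and OSK, an order found in 4.61% of tested genes. BUB1B, CDC20, NDC80 and PRC1 had GFP below GSTA4, OIP5 had GSTA4 below WT, and NUSAP1 had OSK below GFP and GSTA4. All 52 tested members differed among the 4 groups by the edgeR F test (adjusted p under 0.05), as did 66.9% of all genes tested.

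**Figure D2:**
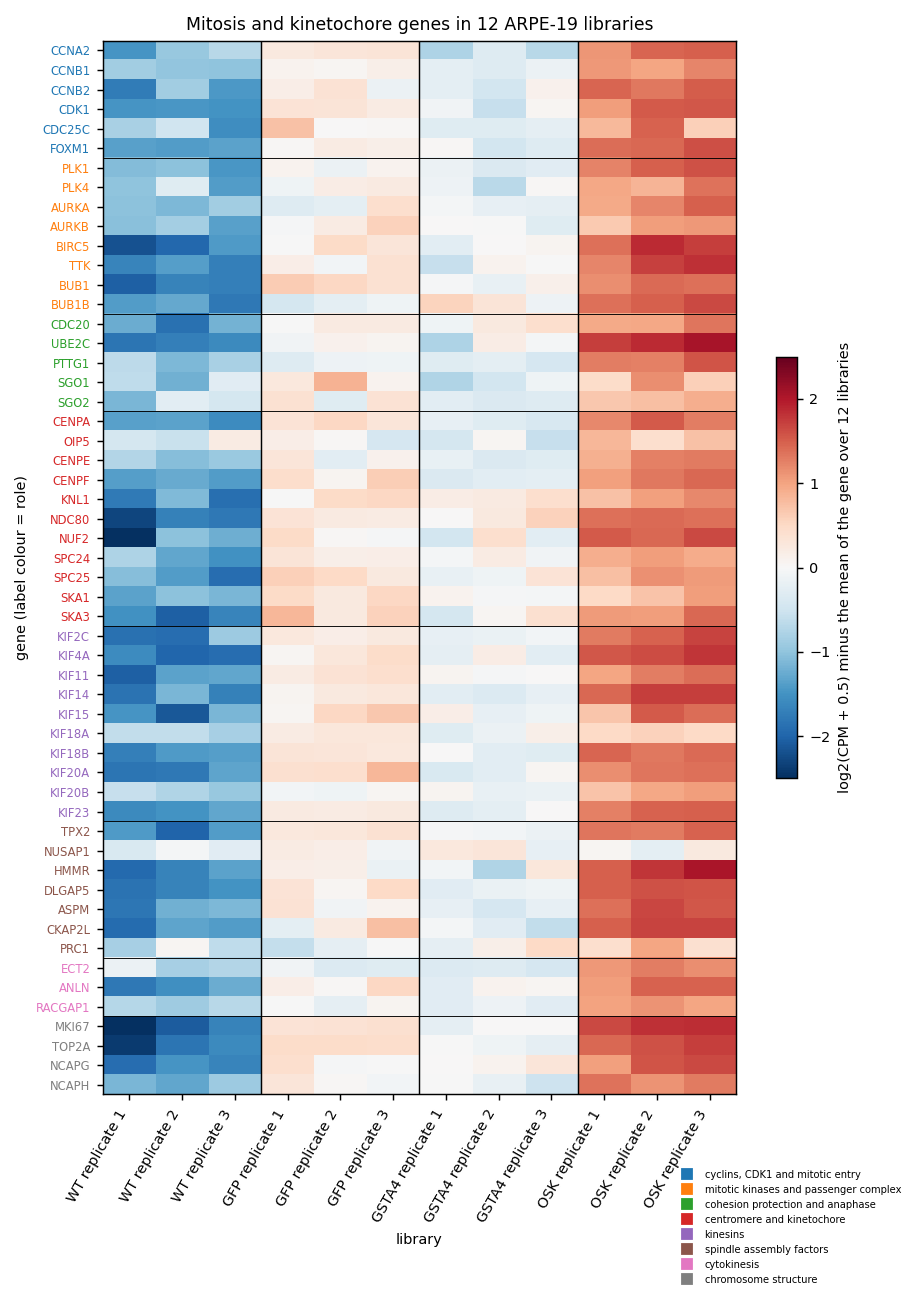
Each row is 1 of the 54 members, coloured by role in its label, and each column 1 of the 12 libraries; the colour is log2(CPM + 0.5) minus the mean of that gene over the 12 libraries. The OSK group has the highest mean and the WT group the lowest for 53 of the 54 genes each, and NUSAP1 and OIP5 are the exceptions.

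Within OSK, replicate 1 was the lowest of its group for 40 of 54 members and replicate 3 the highest for 36. Over all genes, OSK replicate 3 was the highest of its group for 33.9%. WT replicate 1 was the lowest of its group for 24 members and the highest for 9. These differences within groups were smaller than those between WT, GFP and OSK in the summed level. The median coefficient of variation of a member was 24.8% in WT, where levels are low, and 13.6%, 13.2% and 12.7% in GFP, GSTA4 and OSK.

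Per kilobase of exon in the GENCODE 29 models (GRCh38), the most abundant members in OSK were TOP2A, the topoisomerase that untangles chromosomes, at 18.3 CPM per kb, UBE2C at 17.5, CCNA2 at 17.2, CCNB1 at 16.9 and TPX2 at 15.4. In WT the order was another, led by ECT2 at 3.96 CPM per kb, CCNB1 at 3.93 and CCNA2 at 3.19, with TOP2A at 1.55. The lowest levels in OSK belonged to NUSAP1 at 0.144, PRC1 at 0.283 and OIP5 at 0.686 CPM per kb. NUSAP1, which bundles spindle microtubules, had 3 to 9 reads a library, and 62.2% of its exon bases lie in a readthrough model on the same strand, AC087721.2. PRC1 shares 57.6% of its exon bases on the same strand with AC068831.7. Reads in such shared bases cannot be assigned to either gene, so the levels of NUSAP1 and PRC1 are uncertain. In all, 23 members share some exon bases with another model and 4 do so on the same strand, the others being BUB1B (10.2%) and CENPA (7.0%). OIP5, which helps to load CENPA at centromeres, shares 38.0% of its exon bases with OIP5-AS1 on the other strand. NCAPG shares 33.1% with LCORL, SGO1 17.7% with SGO1-AS1, FOXM1 15.9% with ITFG2 and PLK1 12.5% with other models, all on the other strand. The strand setting of the counting is not given in the sources used here, so the levels of these genes may carry the same doubt.

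Against WT, nearly the whole set was higher in the GFP line. By edgeR's quasi-likelihood test with Benjamini-Hochberg adjustment over 15179 genes, 50 of 52 tested members were higher and 0 lower, where 11% of all genes tested were higher and 11.2% lower. ECT2 and PRC1 were the members without a call. The median log2 fold change was 1.91, with a range of 0.30 to 3.40, against 0.01 over all genes tested. Called with a change of at least 2-fold were 46 members, and 502 of all 15179 genes tested. In 49 members every GFP library stood above every WT library. Of the 15179 genes tested, 2567 stood apart in this way and 2689 in the opposite way. Without GFP replicate 1, 48 of 53 tested members were higher, as were 1538 of all 15476 genes then tested.

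GSTA4 cells stood below GFP cells by a smaller step. Here 18 members were lower and 1 higher, where 14.6% of all genes tested were lower and 14.7% higher, and 33 members had no call. The median log2 fold change was -0.38 (range -1.09 to 0.67) against 0.01 over all genes, and 48 of 52 fold changes were below 0. Of the 15179 genes tested, 7760 had a fold change above 0. Without GSTA4 replicate 2, 11 members were lower and 0 higher, and without GFP replicate 1, 15 and 0. Over all genes tested, 2213 were lower and 2226 higher in the main fit. These became 1717 and 1742 without GSTA4 replicate 2, and 1805 and 1693 without GFP replicate 1. Of the 19 member calls, 8 held under all 19 alternatives. Those for BUB1B, CKAP2L, KIF18B, KIF14, CDK1, FOXM1, ASPM, SGO1, DLGAP5, CENPA and CCNB1 were lost under at least 1.

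OSK cells stood above GFP cells. In this comparison 47 members were higher and 0 lower, where 23.1% of all genes tested were higher and 22.8% lower. The members without a call were CDC25C, SGO1, SPC25, SKA1 and KIF18A. The median log2 fold change was 1.15 (0.28 to 1.94) against -0.02 over all genes. Both called and changed at least 2-fold were 35 members, and 1767 of all 15179 genes tested. With library size alone in place of TMM the members stood at 46 higher and 0 lower, while over all genes the split moved from 3508 higher and 3454 lower to 2761 and 4180. Without GFP replicate 1, 45 of 53 tested members were higher, as were 3187 of all 15476 genes then tested.

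In OSK against GSTA4, 51 members were higher and 0 lower. PRC1 alone had no call. Of all genes tested, 24.1% were higher and 23.8% lower in this contrast. The median was 1.54, with a range of 0.66 to 2.17, against -0.01 over all genes. With library size alone, 51 members were higher, while the split over all genes moved from 3655 higher and 3607 lower to 3156 and 4277. GSTA4 against WT gave 46 higher and 0 lower, where 19.7% of all genes tested were higher and 19% lower, with a median of 1.53 (0.17 to 2.77). CDC25C, PLK4, SGO1, SGO2, PRC1 and ECT2 had no call there. SKA3, NDC80 and SPC25 had the largest changes in that contrast, at 2.77, 2.72 and 2.51 on the log2 scale, with standard errors of 0.419, 0.246 and 0.47. These 5 comparisons share libraries, so their values are set side by side and are not independent of each other.

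**Figure D3:**
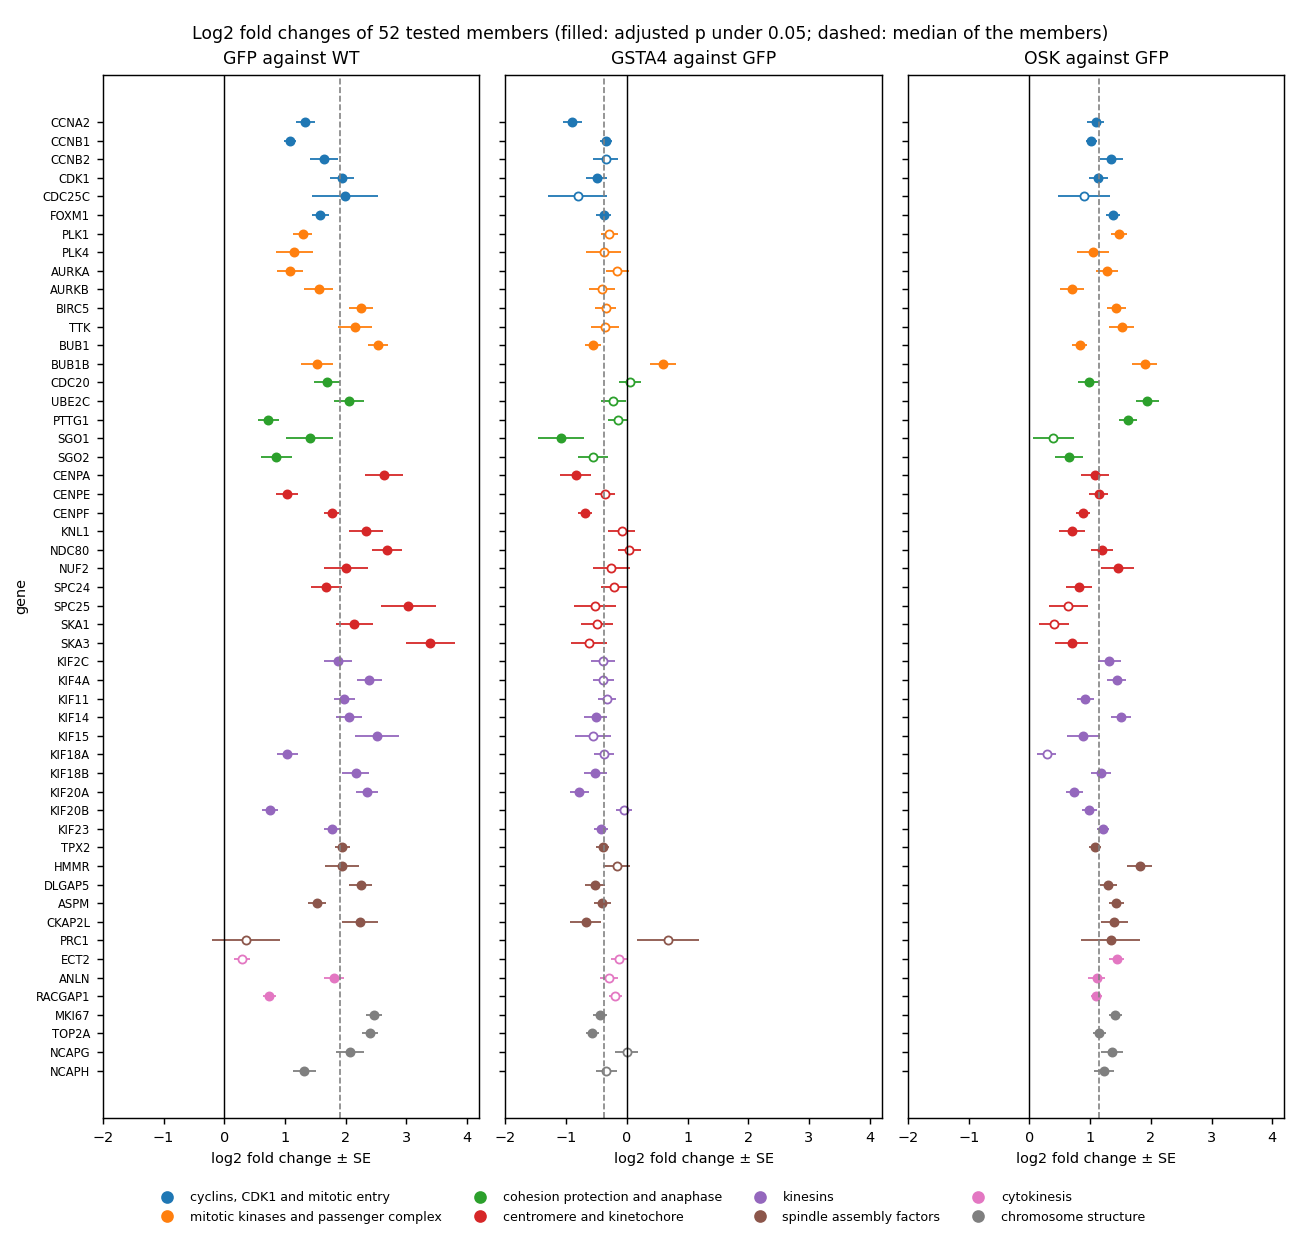
Log2 fold change of each of the 52 tested members (points, with SE as bars) in GFP against WT, GSTA4 against GFP and OSK against GFP; filled points have an adjusted p under 0.05, colours give the role, and dashed lines mark the medians of 1.91, -0.38 and 1.15. All 52 points lie right of 0 in the outer panels, and 48 of 52 lie left of 0 in the middle one.

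Among cyclins and factors of mitotic entry, 6 of 6 were higher in GFP than in WT (median log2 fold change 1.62), 4 of 6 were lower in GSTA4 than in GFP (median -0.44) and 5 of 6 were higher in OSK than in GFP (median 1.11). FOXM1, the factor that drives transcription of G2 and M genes, had 5.29, 5.14 and 5.43 CPM in WT, 14.8, 16.8 and 16.03 in GFP, 14.7, 10.3 and 11.5 in GSTA4 and 38.9, 39.95 and 44.8 in OSK. WT lay below every other library, GSTA4 lay below GFP without overlap, and OSK stood above all. Its log2 fold change was 1.58 (SE 0.136, adjusted p 1.05e-07) in GFP against WT, -0.38 (SE 0.123, adjusted p 0.025) in GSTA4 against GFP and 1.38 (SE 0.113, adjusted p 3.21e-09) in OSK against GFP. The call in GSTA4 was lost when GFP replicate 2 or 3 or GSTA4 replicate 2 or 3 was left out.

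CCNB1, the cyclin B that activates CDK1 at mitotic entry, had 10.7, 9.84 and 9.62 CPM in WT, 21.1, 20.7 and 22.1 in GFP, 16.7, 15.8 and 17.8 in GSTA4 and 42.9, 40.01 and 46.9 in OSK. The 4 groups followed each other without overlap. GFP was 2.12-fold above WT, GSTA4 1.27-fold below GFP (adjusted p 0.0102) and OSK 2.03-fold above GFP. CDK1, the kinase of mitotic entry, had 2.8, 2.86 and 2.77 CPM in WT, 11.2, 11.04 and 10.1 in GFP, 8.13, 5.63 and 9.01 in GSTA4 and 18.4, 26.1 and 26.4 in OSK. WT libraries agreed within a narrow range, and GSTA4 lay below GFP with a wide spread of its own. For CDK1 the log2 fold change was 1.94 (SE 0.194, adjusted p 7.47e-07) for GFP against WT, -0.50 (SE 0.171, adjusted p 0.0329) for GSTA4 against GFP and 1.13 (SE 0.157, adjusted p 5.07e-06) for OSK against GFP. Its fall in GSTA4 was lost without GFP replicate 1 or 2 or GSTA4 replicate 1 or 2, and that of CCNB1 without GSTA4 replicate 2 (adjusted p 0.0528).

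CCNA2, the cyclin of S phase and G2, had one of the larger falls in GSTA4, with 6.34, 9.25 and 11.2 CPM in WT, 21.9, 22.7 and 23.03 in GFP, 10.6, 14.6 and 11.2 in GSTA4 and 39.99, 51.4 and 52.9 in OSK. GSTA4 reached into the WT range, since GSTA4 replicate 1 lay below WT replicate 3, and stood well under GFP. The log2 fold change was -0.90 (SE 0.156, adjusted p 0.000167) in GSTA4 against GFP, which held under every alternative. Against WT it was 0.44 (SE 0.17, adjusted p 0.0482) in GSTA4, a call that 11 of 19 alternatives removed, among them leaving out WT replicate 1 or 2, any 1 GFP library, GSTA4 replicate 2 or 3 or OSK replicate 2 or 3. CDC25C, the phosphatase that activates CDK1, had few reads, with 0.435, 0.661 and 0.059 CPM in WT, 2.21, 1.15 and 1.16 in GFP, 0.826, 0.826 and 0.894 in GSTA4 and 2.35, 4.05 and 1.97 in OSK. OSK overlapped GFP, and WT replicate 3 rested on 1 read. Its log2 fold change was 1.99 (SE 0.544, adjusted p 0.0125) in GFP against WT and 0.90 (SE 0.431, adjusted p 0.093) in OSK against GFP, which passed the threshold without GFP replicate 1 (adjusted p 0.041). The rise of CDC25C in GFP was lost without WT replicate 3 or GFP replicate 1. CCNB2, a second cyclin B, was 3.13-fold higher in GFP than in WT and 2.54-fold higher in OSK than in GFP, and its fold change of -0.35 in GSTA4 against GFP (log2) had an adjusted p of 0.229.

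Mitotic kinases and the chromosomal passenger complex were higher in GFP than in WT in 8 of 8 members (median log2 fold change 1.54) and higher in OSK than in GFP in 8 of 8 (median 1.36). In GSTA4 against GFP 1 was higher, 1 lower and 6 had no call (median -0.35), shares close to the 14.7% and 14.6% of all genes tested. PLK1, which acts from centrosome maturation to cytokinesis, had 4.79, 4.99 and 3.6 CPM in WT, 11.5, 9.61 and 11.5 in GFP, 9.6, 8.26 and 8.74 in GSTA4 and 25.8, 31.3 and 33.1 in OSK. GSTA4 lay just under GFP, and OSK more than doubled it. PLK1 rose on the log2 scale by 1.29 (SE 0.156, adjusted p 8.18e-06) in GFP against WT and, against GFP, by 1.47 (SE 0.132, adjusted p 1.15e-08) in OSK, and in GSTA4 against GFP the value of -0.29 had an adjusted p of 0.142.

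AURKB, the kinase of the passenger complex that corrects faulty attachments, had 2.12, 2.5 and 1.59 CPM in WT, 4.79, 5.74 and 7.54 in GFP, 4.96, 4.88 and 3.85 in GSTA4 and 7.97, 10.6 and 10.9 in OSK. GFP and GSTA4 overlapped, and the lowest OSK library was only slightly above the highest GFP library. AURKB rose on the log2 scale by 1.56 (SE 0.236, adjusted p 9.09e-05) in GFP against WT and, against GFP, by 0.70 (SE 0.201, adjusted p 0.00689) in OSK. BIRC5 (survivin), its partner in the complex, rose by 2.25 and 1.43 on the log2 scale in these comparisons. AURKA, the spindle pole kinase, stood at 4.13 ± 0.435, 8.75 ± 2.78, 7.87 ± 0.564 and 21.4 ± 4.13 CPM in WT, GFP, GSTA4 and OSK. PLK4, which licenses centriole duplication, was the least changed kinase against WT after AURKA, at 1.15 in GFP, and that call was lost without WT replicate 3 (adjusted p 0.0535).

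BUB1, a checkpoint kinase that sits at kinetochores and recruits other checkpoint proteins, had 1.99, 2.72 and 2.6 CPM in WT, 15.2, 14.1 and 12.8 in GFP, 9.53, 8.48 and 10.6 in GSTA4 and 22.3, 26.8 and 25.8 in OSK. All 4 groups were apart, with GSTA4 below GFP. The log2 fold change was 2.53 (SE 0.16, adjusted p 2.13e-09) in GFP against WT, -0.56 (SE 0.133, adjusted p 0.00337) in GSTA4 against GFP and 0.83 (SE 0.124, adjusted p 1.34e-05) in OSK against GFP. BUB1B (BUBR1), a part of the complex that inhibits the anaphase-promoting complex, had 1.31, 1.47 and 0.885 CPM in WT, 3.04, 3.51 and 3.94 in GFP, 6.54, 5.48 and 3.85 in GSTA4 and 11.9, 13.04 and 14.4 in OSK. GSTA4 replicates 1 and 2 were above the GFP libraries and replicate 3 was among them. BUB1B was the single member called higher in GSTA4 than in GFP, at 0.60 (SE 0.218, adjusted p 0.0448) on the log2 scale, and 8 of 19 alternatives removed the call, among them leaving out GFP replicate 1 or 2, any 1 OSK library, GSTA4 replicate 2 or GSTA4 replicate 1 (for the last 0.41, adjusted p 0.228). Of 47 tested genes within 2 Mb of BUB1B on chromosome 15, BUB1B itself among them, 28 were higher and 4 lower in GSTA4 than in GFP. Over all genes tested 14.7% were higher and 14.6% lower. The median of the 47 genes was 0.37 on the log2 scale, and the window was chosen after the value of BUB1B was seen. KNL1, the other member tested in that window, was at -0.08 (adjusted p 0.815). The part of the neighbourhood in the value of BUB1B was not tested. TTK (MPS1), which starts checkpoint signalling, rose by 2.16 in GFP against WT and by 1.52 in OSK against GFP on the log2 scale.

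Genes of cohesion protection and anaphase were higher in GFP than in WT in 5 of 5 members (median 1.41) and in OSK than in GFP in 4 of 5 (median 0.97). In GSTA4 against GFP 1 of 5 was lower, a share (20%) near the 14.6% of all genes tested. CDC20, the activator of the anaphase-promoting complex, had 2.99, 1.76 and 3.13 CPM in WT, 7.68, 9.1 and 9.1 in GFP, 7.05, 9.23 and 10.5 in GSTA4 and 15.2, 15.6 and 20.1 in OSK. GSTA4 and GFP overlapped and had nearly the same mean. Log2 fold changes were 1.70 (SE 0.211, adjusted p 1.11e-05) in GFP against WT, 0.05 (SE 0.183, adjusted p 0.884) in GSTA4 against GFP and 0.97 (SE 0.175, adjusted p 0.000116) in OSK against GFP. UBE2C, the ubiquitin-conjugating enzyme of that complex, had the largest change in OSK, with 1.24, 1.4 and 1.53 CPM in WT, 5.32, 6.17 and 5.98 in GFP, 3.11, 6.53 and 5.43 in GSTA4 and 19.99, 22.1 and 25.3 in OSK. Every OSK library was at least 3 times any GFP or GSTA4 library. The log2 fold change of UBE2C was 1.94 (SE 0.184, adjusted p 2.73e-08) in OSK against GFP and 2.17 (SE 0.187, adjusted p 4.91e-09) in OSK against GSTA4, the largest among the members in both.

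PTTG1 (securin), which holds separase in check until anaphase, was among the least changed members between GFP and WT and among the more changed in OSK. Its libraries stood at 4.79, 3.3 and 4.25 CPM in WT, 6.16, 7.17 and 7.2 in GFP, 6.29, 6.53 and 5.71 in GSTA4 and 19.6, 19.5 and 24.2 in OSK. WT and GFP were apart by a small margin, GSTA4 overlapped GFP, and OSK was far above. Log2 fold changes were 0.73 (SE 0.169, adjusted p 0.0043) in GFP against WT and 1.62 (SE 0.148, adjusted p 1.49e-08) in OSK against GFP. SGO1, the shugoshin that protects centromeric cohesin, was low, with 0.995, 0.514 and 1.42 CPM in WT, 2.28, 3.73 and 1.97 in GFP, 0.89, 1.2 and 1.65 in GSTA4 and 2.7, 4.68 and 3.02 in OSK. OSK and GFP overlapped, and GSTA4 overlapped WT. It had the lowest fold change of all members in GSTA4 against GFP, -1.09 (SE 0.379, adjusted p 0.035), which was lost without GFP replicate 2, GSTA4 replicate 1 or GSTA4 replicate 2. In OSK against GFP the value of 0.39 had an adjusted p of 0.369, and the rise in GFP against WT, 1.41 (SE 0.386, adjusted p 0.0125), was lost without WT replicate 2 or GFP replicate 2. SGO2, its relative, had 1.62, 3.38 and 2.95 CPM in WT, 5.55, 3.3 and 5.5 in GFP, 3.37, 3.15 and 3.23 in GSTA4 and 6.97, 7.34 and 8.3 in OSK. GFP replicate 2 lay inside the WT range, so those groups overlapped, and GSTA4 overlapped both. Its log2 fold change was 0.86 (SE 0.255, adjusted p 0.0197) in GFP against WT and 0.31 (SE 0.265, adjusted p 0.388) in GSTA4 against WT, and the call in GFP was lost without GFP replicate 1 or 3 or WT replicate 1.

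Centromere and kinetochore genes were all higher in GFP than in WT, with 10 of 10 tested members called. Their median log2 fold change was 2.24, shared with chromosome structure genes as the highest of the 8 roles, and 8 of 10 were higher in OSK than in GFP with a median of 0.85, the lowest of the roles. Of these 10 members, 2 were lower in GSTA4 than in GFP and 8 had no call (median -0.425). The share lower (20%) was near the 14.6% of all genes tested. Whether the roles differ was not tested. CENPA, the histone H3 variant that marks centromeres, had 0.498, 0.514 and 0.354 CPM in WT, 2.74, 3.15 and 2.65 in GFP, 1.72, 1.58 and 1.45 in GSTA4 and 5.41, 6.9 and 5.7 in OSK. The 4 groups did not overlap, and WT rested on 6 to 8 reads a library. CENPA had log2 fold changes of 2.63 (SE 0.314, adjusted p 7e-06) in GFP against WT, -0.84 (SE 0.261, adjusted p 0.0188) in GSTA4 against GFP and 1.08 (SE 0.23, adjusted p 0.000677) in OSK against GFP. The fall in GSTA4 missed the threshold without GFP replicate 2 (adjusted p 0.0602) and without GSTA4 replicate 3 (0.0615).

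The NDC80 complex, the main microtubule coupler of the kinetochore, has the subunits NDC80, NUF2, SPC24 and SPC25. NDC80 had 0.56, 1.1 and 1.003 CPM in WT, 6.08, 5.52 and 5.43 in GFP, 4.7, 5.63 and 7.22 in GSTA4 and 12.9, 13.2 and 13.01 in OSK. WT was far below the other libraries, GSTA4 spread on both sides of GFP, and the OSK libraries lay close together. Its log2 fold change was 2.68 (SE 0.248, adjusted p 2.66e-07) in GFP against WT, 0.04 (SE 0.19, adjusted p 0.896) in GSTA4 against GFP and 1.20 (SE 0.179, adjusted p 1.3e-05) in OSK against GFP. SPC25 had 0.498, 0.294 and 0.059 CPM in WT, 2.66, 2.44 and 1.97 in GFP, 1.33, 1.43 and 2.13 in GSTA4 and 2.99, 4.12 and 3.87 in OSK. It was low throughout, with 8, 4 and 1 reads in WT, and its change of 3.03 (SE 0.452, adjusted p 7.91e-05) in GFP against WT was among the 3 largest. In OSK against GFP every OSK library was above every GFP library, but the log2 fold change of 0.64 did not pass (adjusted p 0.113). NUF2 and SPC24 were higher in GFP than in WT by 2.01 and 1.68 and in OSK than in GFP by 1.45 and 0.82 on the log2 scale. All 4 subunits rose between WT and GFP, and NDC80, NUF2 and SPC24 rose again between GFP and OSK.

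SKA1 and SKA3, subunits of the complex that keeps kinetochores on shortening microtubules were low in every WT library. SKA3 had 0.435, 0.147 and 0.354 CPM in WT, 4.26, 2.65 and 3.46 in GFP, 1.46, 2.25 and 3.03 in GSTA4 and 5.05, 5.001 and 6.75 in OSK, from 7, 2 and 6 reads in WT. GFP overlapped GSTA4, and OSK lay above both. The fold change of SKA3 in GFP against WT was the largest of all members, 3.40 (SE 0.4, adjusted p 6.05e-06), and in OSK against GFP it was 0.70 (SE 0.275, adjusted p 0.0445), a call that 7 of 19 alternatives removed, among them leaving out GFP replicate 2 or 3, GSTA4 replicate 2 or any 1 OSK library. SKA1 had 0.56, 0.808 and 0.708 CPM in WT, 3.19, 2.65 and 3.33 in GFP, 2.35, 2.1 and 2.06 in GSTA4 and 3.27, 3.86 and 4.995 in OSK. Its OSK and GFP libraries overlapped, and the log2 fold change of 0.40 between them had an adjusted p of 0.2, after 2.14 (SE 0.307, adjusted p 5.25e-05) in GFP against WT.

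KNL1, the kinetochore scaffold that docks BUB1, had 0.871, 1.69 and 0.767 CPM in WT, 4.18, 6.02 and 6.25 in GFP, 4.83, 4.95 and 5.78 in GSTA4 and 7.33, 9.12 and 10.3 in OSK. GFP and GSTA4 overlapped, and OSK was above both by a modest margin. KNL1 differed by 2.34 (SE 0.277, adjusted p 6.58e-06) on the log2 scale in GFP against WT and 0.78 (SE 0.216, adjusted p 0.00523) in OSK against GSTA4, one of the 3 smallest there. In OSK against GFP it was 0.70 (SE 0.216, adjusted p 0.0122), which was lost without GFP replicate 1 or OSK replicate 3. CENPF, a large protein of the outer kinetochore, stood at 14.8 ± 0.83, 50.5 ± 9.63, 31.2 ± 1.46 and 93.1 ± 12.98 CPM in WT, GFP, GSTA4 and OSK. Its fall in GSTA4 against GFP, -0.69 (SE 0.118, adjusted p 0.000133), held under every alternative. CENPE, the kinetochore motor, rose by 1.04 in GFP against WT and by 1.14 in OSK against GFP on the log2 scale.

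**Figure D4:**
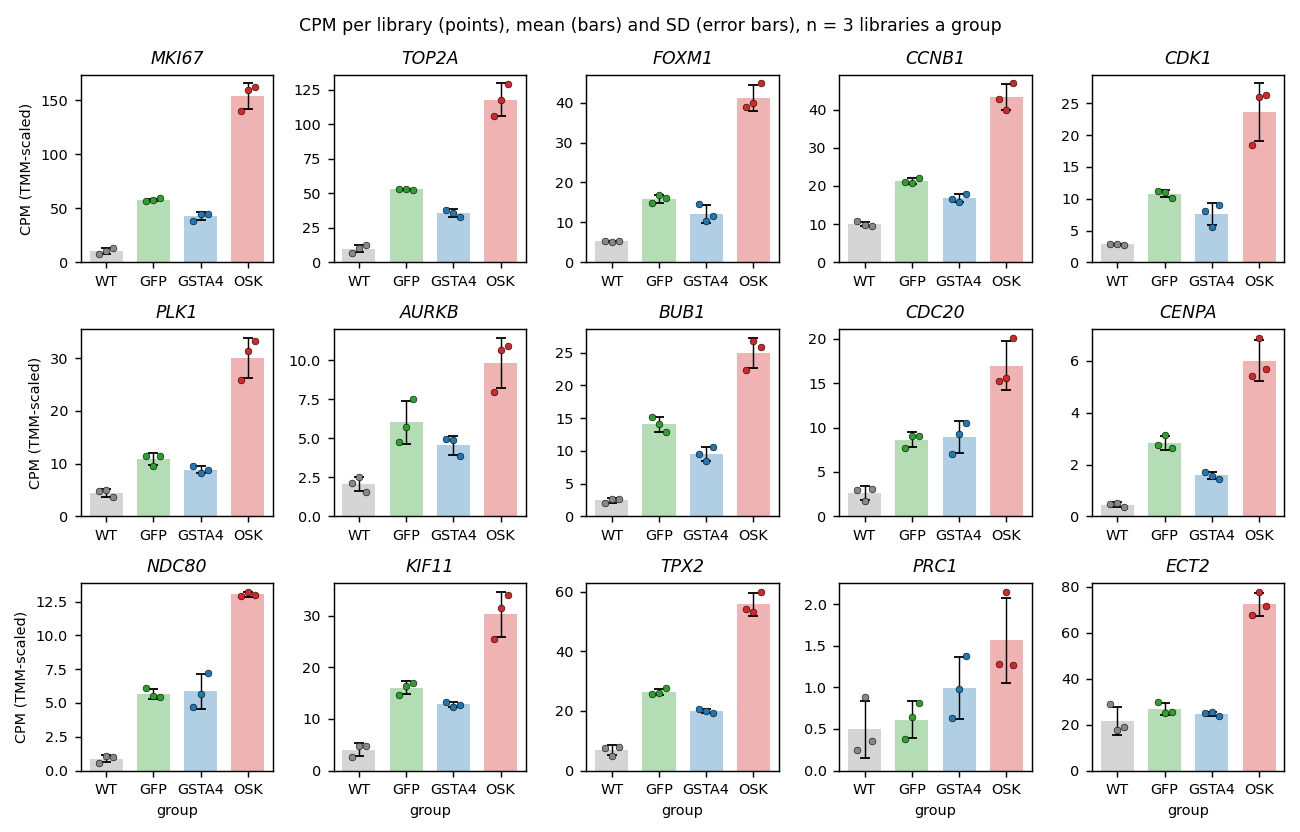
CPM in each library (points), group mean (bars) and SD (error bars, n = 3 libraries) for 15 members; each panel has its own y axis from 0. OSK is the tallest bar in every panel, WT the lowest, and PRC1 and ECT2 differ from the rest in having WT and GFP libraries that overlap.

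Mitotic kinesins were higher in GFP than in WT in 10 of 10 members (median 2.02), lower in GSTA4 than in GFP in 4 of 10 (median -0.41) and higher in OSK than in GFP in 9 of 10 (median 1.08). KIF11 (Eg5), which pushes spindle poles apart, had 2.67, 4.7 and 4.84 CPM in WT, 14.6, 16.4 and 17.1 in GFP, 13.3, 12.4 and 12.7 in GSTA4 and 25.5, 31.4 and 33.98 in OSK. The GSTA4 libraries were tightly grouped just under GFP. Log2 fold changes were 1.98 (SE 0.17, adjusted p 1.07e-07) in GFP against WT and 0.92 (SE 0.14, adjusted p 1.73e-05) in OSK against GFP, and -0.32 in GSTA4 against GFP had an adjusted p of 0.11. KIF14, a kinesin of cytokinesis, had 1.12, 2.13 and 1.3 CPM in WT, 5.63, 6.45 and 6.59 in GFP, 4.38, 4.13 and 4.54 in GSTA4 and 15.4, 18.7 and 18.9 in OSK. The 4 groups were apart, and OSK stood highest. Its difference between OSK and GSTA4, 2.02 (SE 0.171, adjusted p 3.82e-09), was among the 3 largest.

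KIF18A, which damps chromosome oscillations at the spindle equator, was the kinesin least changed in OSK. It had 3.86, 3.89 and 3.25 CPM in WT, 7.22, 7.67 and 7.68 in GFP, 4.89, 5.55 and 6.95 in GSTA4 and 8.96, 9.5 and 9.01 in OSK. OSK was above GFP in every library, yet by little. Its log2 fold change of 0.28 in OSK against GFP had an adjusted p of 0.156, and in OSK against GSTA4 it was 0.66 (SE 0.163, adjusted p 0.0021), the smallest of all members. KIF18B, its relative at microtubule plus ends, rose by 2.16 in GFP against WT and by 1.18 in OSK against GFP. KIF20A, a motor of the central spindle, had the largest fall among kinesins in GSTA4 against GFP, -0.78 (SE 0.157, adjusted p 0.000741), and that call held under every alternative. KIF23, the motor of the centralspindlin complex, also kept its fall there, -0.42 (SE 0.113, adjusted p 0.00759). KIF20B was the least changed kinesin against WT, at 0.75 in GFP. KIF2C, KIF4A and KIF15, a depolymerase, a chromosome motor and a spindle motor, rose by 1.87, 2.39 and 2.52 in GFP against WT and by 1.32, 1.44 and 0.88 in OSK against GFP on the log2 scale, the last of which was lost without GFP replicate 1 or OSK replicate 2.

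Spindle assembly factors were higher in GFP than in WT in 5 of 6 tested members (median 1.94) and in OSK than in GFP in 6 of 6 (median 1.37), and 4 of 6 were lower in GSTA4 than in GFP. TPX2, which activates AURKA on the spindle, had 7.65, 4.92 and 7.79 CPM in WT, 25.6, 25.9 and 27.6 in GFP, 20.7, 20.1 and 19.2 in GSTA4 and 54.1, 52.99 and 59.9 in OSK. No 2 groups overlapped. TPX2 had log2 fold changes of 1.94 (SE 0.125, adjusted p 2.52e-09) in GFP against WT, -0.40 (SE 0.111, adjusted p 0.00988) in GSTA4 against GFP and 1.08 (SE 0.104, adjusted p 3.58e-08) in OSK against GFP, and the fall in GSTA4 held under every alternative. HMMR, a microtubule-binding partner of TPX2, had 1.24, 1.61 and 2.18 CPM in WT, 7.07, 6.95 and 5.5 in GFP, 5.97, 3.53 and 7.71 in GSTA4 and 18.6, 22.7 and 27.2 in OSK. OSK was far above the other groups, and GSTA4 overlapped GFP. Its change in OSK against GFP, 1.81 (SE 0.208, adjusted p 4.16e-07), ranked after those of UBE2C and BUB1B.

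CKAP2L, a spindle protein, had 0.747, 1.4 and 1.3 CPM in WT, 3.5, 5.02 and 7.54 in GFP, 4.07, 3.38 and 2.61 in GSTA4 and 12.9, 14.8 and 14.9 in OSK. The GFP libraries were spread widely and overlapped GSTA4. The log2 fold change was -0.68 (SE 0.252, adjusted p 0.049) in GSTA4 against GFP, a call that leaving out any of 9 single libraries removed (all but WT replicate 1, GFP replicate 1 and GSTA4 replicate 1), and 2.08 (SE 0.235, adjusted p 2.73e-07) in OSK against GSTA4, the second largest there. DLGAP5 and ASPM, which act on spindle microtubules and poles, rose by 2.25 and 1.53 in GFP against WT and by 1.30 and 1.43 in OSK against GFP on the log2 scale. PRC1, which crosslinks the antiparallel microtubules of the central spindle, was near the floor, with 0.249, 0.881 and 0.354 CPM in WT, 0.38, 0.645 and 0.815 in GFP, 0.635, 0.976 and 1.38 in GSTA4 and 1.28, 2.15 and 1.27 in OSK. WT, GFP and GSTA4 overlapped, and in OSK against GSTA4 the value of 0.66 had an adjusted p of 0.248. The log2 fold change was 0.36 (SE 0.558, adjusted p 0.695) in GFP against WT, 0.67 (SE 0.511, adjusted p 0.356) in GSTA4 against GFP and 1.34 (SE 0.487, adjusted p 0.0297) in OSK against GFP. That rise was lost without GFP replicate 1, GFP replicate 2 or OSK replicate 2.

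Cytokinesis genes were split between the comparisons. ANLN and RACGAP1, but not ECT2, were higher in GFP than in WT, and 3 of 3 were higher in OSK than in GFP (median 1.11). ECT2, the RhoA exchange factor that starts furrowing, had 28.8, 17.6 and 18.9 CPM in WT, 29.8, 25.02 and 25.7 in GFP, 24.9, 25.4 and 23.6 in GSTA4 and 67.8, 77.9 and 71.5 in OSK. WT replicate 1 reached the GFP range, the WT, GFP and GSTA4 groups overlapped, and the OSK libraries were more than double any other. Log2 fold changes were 0.30 (SE 0.134, adjusted p 0.121) in GFP against WT, 0.17 (SE 0.134, adjusted p 0.332) in GSTA4 against WT and 1.43 (SE 0.126, adjusted p 8.65e-09) in OSK against GFP. Without WT replicate 1 the first rose to 0.55 (adjusted p 0.000355) and the second to 0.43 (0.00184), so both calls turned on that library. ANLN, the furrow scaffold, rose by 1.80 in GFP over WT and 1.11 in OSK over GFP, and RACGAP1, the partner of KIF23 in centralspindlin, by 0.74 and 1.10 on the log2 scale.

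Of the chromosome structure genes, all 4 were higher in GFP than in WT (median 2.24) and in OSK than in GFP (median 1.29), and 2 were lower in GSTA4 than in GFP. MKI67 (Ki-67), the surface coat of mitotic chromosomes and a standard mark of dividing cells, had 7.53, 10.1 and 13.7 CPM in WT, 56.6, 57.6 and 59.2 in GFP, 38.2, 45.1 and 45.1 in GSTA4 and 140.5, 159 and 162 in OSK. The 4 groups did not overlap. Log2 fold changes were 2.46 (SE 0.131, adjusted p 2.55e-10) in GFP against WT, -0.44 (SE 0.114, adjusted p 0.0063) in GSTA4 against GFP and 1.41 (SE 0.109, adjusted p 1.14e-09) in OSK against GFP. TOP2A had 6.97, 10.6 and 12.4 CPM in WT, 52.9, 53.4 and 52.4 in GFP, 38.2, 35.8 and 33.1 in GSTA4 and 106, 118 and 129 in OSK. Its GFP libraries were nearly equal, and GSTA4 stood below them. The log2 fold change was 2.40 (SE 0.131, adjusted p 2.55e-10) in GFP against WT, -0.57 (SE 0.114, adjusted p 0.000764) in GSTA4 against GFP and 1.15 (SE 0.109, adjusted p 2.5e-08) in OSK against GFP. NCAPG and NCAPH, subunits of condensin I, rose by 2.07 and 1.32 in GFP against WT and by 1.35 and 1.23 in OSK against GFP, with -0.01 and -0.34 and no call in GSTA4 against GFP.

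Medians of members with and without a CHR in the promoter window had the same sign in each contrast. The 33 tested members with a CHR had a median log2 fold change of 1.98 in GFP against WT, -0.41 in GSTA4 against GFP and 1.18 in OSK against GFP. For the 11 without one the medians were 1.34, -0.39 and 1.02. CDC25C, CENPE and KIF2C, with neither motif in the window searched, rose by 1.99, 1.04 and 1.87 in GFP against WT. Whether the sets with and without a CHR differ was not tested.

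Other cell cycle genes were counted from lists written by hand from general knowledge, with earlier results of these data known. The counts are to be read against the shares of all genes called higher and lower. Those shares were 11% and 11.2% in GFP against WT, 14.7% and 14.6% in GSTA4 against GFP and 23.1% and 22.8% in OSK against GFP. Of 30 genes of DNA replication and the G1/S step, 17 were higher and 1 lower in GFP than in WT (median log2 fold change 0.68), 1 was higher and 1 lower in GSTA4 than in GFP (median -0.10), and 19 were higher and 0 lower in OSK than in GFP (median 0.56). Their medians were smaller in size than those of the members in each of these comparisons, a difference that was not tested. Of 19 genes of the constitutive centromere network and CENPA loading, 10 were higher and 1 lower in GFP than in WT, and 9 higher and 1 lower in OSK than in GFP. HJURP, the chaperone that brings CENPA to centromeres, stood at 1.55, 10.1, 6.502 and 28.0 CPM in WT, GFP, GSTA4 and OSK, in the order of the members. CENPT, a DNA-binding subunit of that network, went another way, at 40.0, 80.5, 263.4 and 58.7 CPM.

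Of 15 other kinetochore and checkpoint genes, 5 were higher and 1 lower in GFP than in WT, 3 higher and 2 lower in GSTA4 than in GFP, and 6 higher and 0 lower in OSK than in GFP. ZWINT, a partner of KNL1, stood at 3.996, 10.2, 14.7 and 21.8 CPM in WT, GFP, GSTA4 and OSK, and it rose in GFP over WT (log2 fold change 1.35, SE 0.158, adjusted p 5.64e-06) and in OSK over GFP (1.09, SE 0.134, adjusted p 1.01e-06). It also rose in GSTA4 over GFP (0.53, SE 0.137, adjusted p 0.00621), where 18 members fell. Of 15 subunits of the anaphase-promoting complex, 0 were higher and 3 lower in GFP than in WT, 5 higher and 0 lower in GSTA4 than in GFP, and 5 higher and 1 lower in OSK than in GFP, with medians of -0.02, 0.14 and 0.13. Of 16 other condensin and cohesin genes, 5 were higher and 3 lower in GFP than in WT and 10 higher and 0 lower in OSK than in GFP. ESPL1 (separase) rose by 1.86 (SE 0.253) and CDCA5 (sororin) by 1.80 (SE 0.208) in GFP against WT.

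Of 12 subunits of the DREAM and MuvB complexes, 1 was higher and 1 lower in GFP than in WT, near the 11% and 11.2% of all genes tested, 1 higher and 0 lower in GSTA4 than in GFP, and 6 higher and 2 lower in OSK than in GFP. MYBL2 (B-MYB), which turns MuvB into an activator, was the 1 called higher against WT, at 2.00, 7.24, 9.04 and 13.6 CPM in WT, GFP, GSTA4 and OSK with a rise of 1.87 in GFP on the log2 scale (SE 0.251, adjusted p 2.5e-05). CDK inhibitors moved in different directions. Of 7, 2 were higher and 1 lower in GFP than in WT, 1 higher and 3 lower in GSTA4 than in GFP, and 1 higher and 3 lower in OSK than in GFP. CDKN2C (p18) stood at 2.03, 9.83, 6.71 and 24.9 CPM in WT, GFP, GSTA4 and OSK, in the order of the mitotic genes. CDKN2B (p15) stood at 303.3, 204.2, 58.8 and 128.1 CPM, highest in WT and lowest in GSTA4, and CDKN1A (p21) at 195.3, 187.4, 233.1 and 154.3 CPM.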

How the data were processed

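Raw read counts per gene were deposited for the 12 libraries in a single table, all whole numbers whose totals differ between libraries. Reads were aligned with STAR 2.7.1a and counted with featureCounts 1.6.2 to GRCh38, per the submitters' processing notes, which also name a mouse build; the annotation release and strand setting are not given in the sources used here. Groups were taken from the sample titles. Lines without a symbol (20014 of 60605, 0.485% to 0.822% of a library's reads) were left out. Named genes passing filterByExpr (15179) were tested with edgeR 4.0.16 (R 4.3.3, limma 3.58.1) by the two-sided quasi-likelihood F test after TMM scaling, with all 12 libraries in 1 fit of group means, 8 residual and 12 prior degrees of freedom and a common biological coefficient of variation of 7.91%. The Benjamini-Hochberg adjustment was made per contrast over all genes tested, calls needed an adjusted p under 0.05, and SE is the log2 fold change over the root of F. Depth of 12630675 to 17045454 reads sets the floor of 3 reads at 0.177 to 0.239 CPM. The test was also run on simulated counts with the same spread for every gene and no differences between groups beyond planted changes. Such counts do not show the error rates in these libraries. Gene models came from GENCODE 29 and promoter windows from RefSeq (GRCh38.p14), matched by symbol.

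The members and lists were chosen with earlier results of these data known. Per-library values and full statistics were given to a fixed set of 15 members, at least 1 for each role, to the 3 largest and 3 smallest changes of each contrast, to calls against the direction of the rest and to members without a call where these were 5 or fewer; at most 3 genes of another list were named. Other members are named by level or fold change. Results were recomputed with library size alone, RLE scaling, no filter, a stricter filter, DESeq2 1.42.0, only the groups compared, the replicate number as a block and each library left out in turn.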

Additional observations from a re-analysis of the deposited data

How the results depend on the processing

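Across 19 alternatives, the direction of the members' medians never turned in any of the 5 contrasts, and the counts of members called stayed within 1.5 times the main count except in GSTA4 against GFP. There, leaving out 1 library gave between 11 members (without GSTA4 replicate 2) and 20 (without WT replicate 1). Over all genes, the calls in that contrast were 1742 higher and 1717 lower without GSTA4 replicate 2, and 2579 and 2485 without WT replicate 1. Leaving out 1 library moved the members' median log2 fold change between 1.75 (without WT replicate 1) and 1.92 in GFP against WT. In GSTA4 against WT it moved between 1.37 (without WT replicate 1) and 1.63. In GSTA4 against GFP the fold change of 7 members, none with a call in that contrast, turned sign under some alternative. It did so for CDC20, at -0.03 without GFP replicate 1 and -0.0879 without GSTA4 replicate 3 (highest 0.198, without GSTA4 replicate 1), and for NDC80, at -0.136 without GSTA4 replicate 3 (highest 0.186, without GSTA4 replicate 1). AURKA reached 0.13 and KNL1 0.013 without GFP replicate 3, UBE2C 0.038 without GSTA4 replicate 1 and HMMR 0.075 without GSTA4 replicate 2, and NCAPG ran from -0.0988 to 0.16. The cause was not tested. Elsewhere leaving out 1 library gave 48 to 50 members in GFP against WT, 43 to 47 in OSK against GFP, 50 to 52 in OSK against GSTA4 and 45 to 47 in GSTA4 against WT. In that order, genes called higher over all genes tested numbered 1128 to 1635, 3142 to 3817, 3305 to 3873 and 2401 to 3075. Without the filter all 54 members were tested, with 50, 18, 47, 52 and 47 called in GFP against WT, GSTA4 against GFP, OSK against GFP, OSK against GSTA4 and GSTA4 against WT. Over all 31531 genes then tested, calls in the same order were 1662, 2163, 3535, 3587 and 2684 higher. Lower were 1761, 2280, 3458, 3358 and 2777. Calls that held under all 19 alternatives were 46 of 50 for GFP and 44 of 46 for GSTA4 when set against WT, 8 of 19 for GSTA4 and 42 of 47 for OSK when set against GFP, and 50 of 51 between OSK and GSTA4. Low counts limit PRC1, SPC25, CDC25C, SGO1, OIP5 and NUSAP1.

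Replicate numbers are shared by the groups, but same-numbered libraries deviated together only weakly (r of -0.02 to 0.17 over 18 pairs, 3 of them over 0.1, against -0.11 to 0.09 for other pairs), and 8 of 12 libraries correlated best with their own number. Those 3 pairs joined WT replicate 1 to replicate 1 of GFP, GSTA4 and OSK (r of 0.169, 0.157 and 0.132). The main fit did not take the number as a pairing, and these values do not settle whether it is one. With the replicate block, the counts of members called were 50, 21, 47, 51 and 46, in the order given for the counts without the filter. Over all genes the block raised the counts called in each contrast, in GFP against WT from 1666 higher and 1703 lower to 1905 and 1874.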
